A study of Mus musculus with 8 samples.

Results

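Immediate early and stress genes are the fast transcriptional answer of a cell to a growth factor, an inflammatory signal, heat or mechanical handling. A list of 41 of them was followed through 3 populations of dendritic cell (DC) progenitors. A gene was taken as measured where the array annotation gave a probe set to that gene alone. This held for 40 of the 41 members, among 19938 genes with such a probe set in all. Hspa1b has no value, because its probe set also belongs to Hspa1a. A filter on low signal (at least 2 arrays above the 40th percentile of their own array) was passed by 39 of the 40 and by 13356 genes in total. Nr4a3, an orphan nuclear receptor gene, did not pass it, with log2 signals of 3.39 to 4.15 over the 8 arrays.

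All cells came from the bone marrow of mice heterozygous for a Zeb2-GFP fusion reporter, which makes cells that express the repressor Zeb2 visible to a cell sorter. Common DC progenitors (CDPs) are marrow cells upstream of the DC lineages. Sorted by flow cytometry, they were measured as Zeb2hi CDPs, with 3 arrays, and Zeb2low CDPs, also with 3 arrays; the labels do not give the sort gates. Pre-CD8 DCs, precursors committed to the classical DC 1 (cDC1) branch, were measured on 2 arrays. All groups carry the reporter allele. The labels do not tie the arrays of a group to different mice or different sorts, and the p-values therefore reflect array-to-array spread that could be technical. In such bulk samples, fewer cells of a type and less RNA per cell cannot be told apart.

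The products of these genes fall into a few classes. Fos, Jun and Atf3 proteins pair through leucine zippers into AP-1 and related dimers, the Egr, Klf and Nr4a proteins are further DNA-binding factors, and their genes are switched on without new protein synthesis by serum response factor (SRF), CREB and other factors that are already present. Dual-specificity phosphatases such as Dusp1 and Dusp6 switch off the MAP kinases that start the response. Zfp36 proteins bind AU-rich elements and speed the decay of short-lived transcripts, and Nfkbia, Nfkbiz and Tnfaip3 act in the NF-kappaB pathway. Such genes are known to respond to tissue dissociation and cell sorting as well as to signals in the animal.

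The labelled populations were checked against their markers. The mean log2 signal of 10 cDC1 lineage genes was 5.58 to 5.99 on the Zeb2hi arrays, 7.52 to 7.63 on the Zeb2low arrays and 8.64 to 9.01 on the pre-CD8 DC arrays. Of these, Xcr1, a chemokine receptor of cDC1s, was low on the CDP arrays (3.49 to 4.09) and differed between pre-CD8 DC arrays 1 (7.57) and 2 (5.03). The 5 CDP markers Flt3, Csf1r, Kit, Irf8 and Cx3cr1 had means of 8.67 to 9.30 on the CDP arrays and of 8.77 and 8.84 on the pre-CD8 DC arrays. Single genes moved in opposite directions. Csf1r read 9.16 to 9.56 in Zeb2hi CDPs and 8.06 and 7.23 in pre-CD8 DCs, and Cx3cr1 8.48 to 9.08 and then 7.23 and 7.84. Kit read 7.34 to 8.14 and then 8.72 and 9.07, while Flt3 and Irf8 overlapped between these groups. The 13 listed genes of mature neutrophils, all of which passed the filter, had means of 7.80 to 9.59 in Zeb2hi CDPs, 9.42 to 11.44 in Zeb2low CDPs and 9.75 and 11.90 in pre-CD8 DCs. S100a8, an abundant neutrophil gene, lay between 12.03 and 13.13 on all arrays.

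Within both CDP fractions, array 1 carried the lowest signals of the module. Zeb2hi array 1 was the lowest of its 3 arrays for 32 of 39 members, against 41.2% of all genes tested, and its median deviation from the group mean over the members was -0.53 on the log2 scale. Zeb2low array 1 was the lowest for 38 of 39 members, against 41.5% of all genes, with a median deviation of -0.48. In 32 members array 1 was lowest in both fractions, a pattern that 25.5% of all genes tested had. Zeb2hi array 3 was the highest of its group for 32 members, against 28.7% of all genes, with a median deviation of 0.56. In Zeb2low CDPs, array 2 was the highest for 22 members and array 3 for 17, against 29.8% and 32.1% of all genes. Over all genes tested the median deviations of these arrays were between -0.01 and 0.01.

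**Figure D1:**
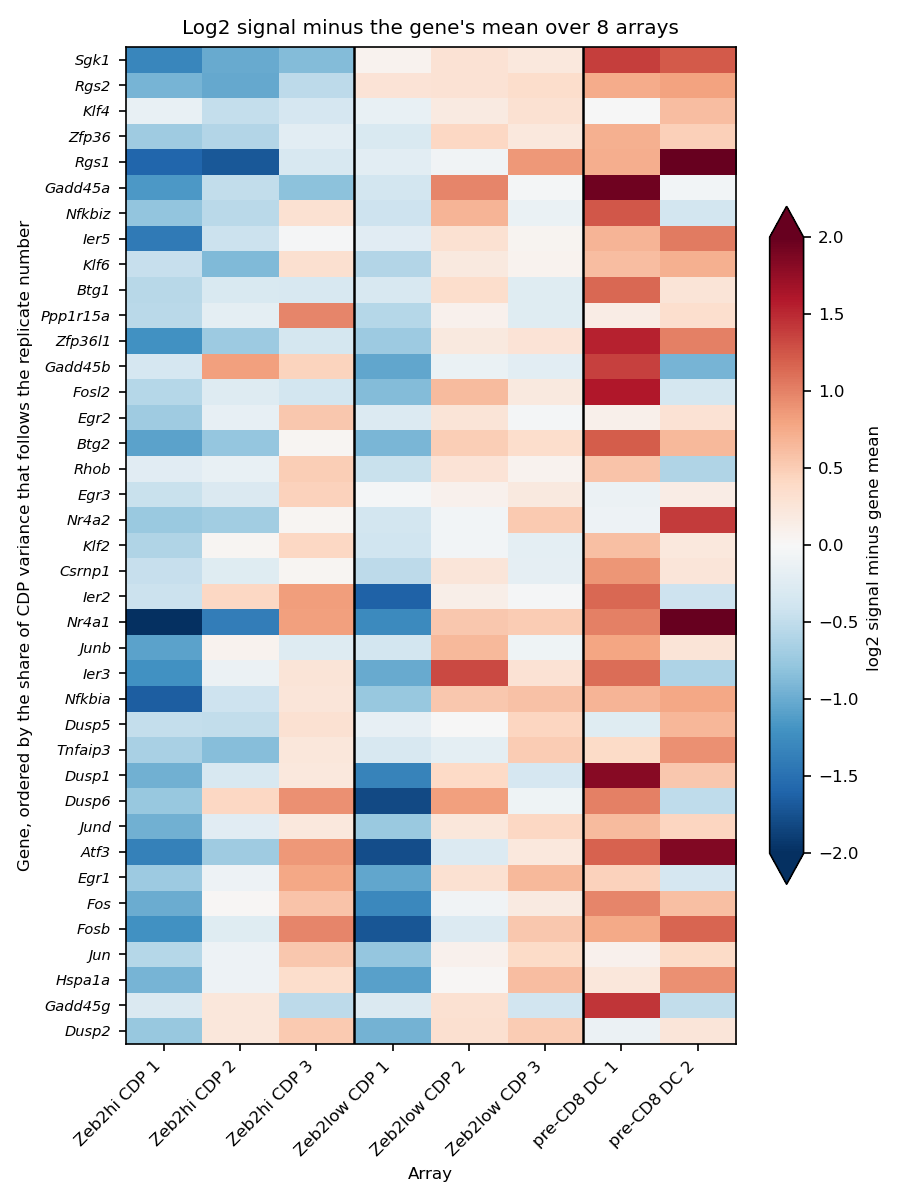
Log2 signal of the 39 tested members (rows) on the 8 arrays (columns), each as the difference from that gene's mean over all arrays; colours are capped at -2 and 2, and rows run from the smallest to the largest share of CDP variance that follows the replicate number. Array 1 is blue in both CDP fractions for most rows, whereas Sgk1 and Rgs2 at the top change by population.

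The AP-1 genes showed this array pattern. Fos had log2 signals of 8.47, 9.48 and 10.02 on Zeb2hi arrays 1, 2 and 3, of 8.17, 9.38 and 9.63 on Zeb2low arrays 1, 2 and 3, and of 10.43 and 10.05 on the pre-CD8 DC arrays. The CDP fractions overlapped throughout, and both pre-CD8 DC values lay above all CDP values. Fosb, its close paralog, read 8.81, 9.79 and 11 in Zeb2hi CDPs, 8.32, 9.76 and 10.57 in Zeb2low CDPs, and 10.78 and 11.19 in pre-CD8 DCs. Jun, the usual partner of Fos, read 9.76, 10.23 and 10.88, then 9.56, 10.43 and 10.72, and 10.42 and 10.72 in the same order of groups, so that all 3 groups overlapped. Jund, a less inducible Jun paralog, was lowest on array 1 of both fractions too (7.22 in Zeb2low CDPs) and between 7.74 and 8.36 on arrays 2 and 3.

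Atf3, a stress-induced repressor of the ATF/CREB family, spanned over 2 log2 units within the Zeb2hi group, at 6.97, 7.62 and 9.19. On the Zeb2low arrays it read 6.55, 8.06 and 8.54, and on the pre-CD8 DC arrays 9.51 and 10.18. Both pre-CD8 DC values were above all CDP values, and the CDP fractions overlapped. Egr1, a zinc finger factor induced by growth factors, read 7.82, 8.45 and 9.33 in Zeb2hi CDPs, 7.51, 8.86 and 9.20 in Zeb2low CDPs, and 9.02 and 8.22 in pre-CD8 DCs. Its pre-CD8 DC values lay inside the CDP range. Hspa1a, an inducible Hsp70 chaperone gene, read 9.36, 10.18 and 10.64, then 9.20, 10.30 and 10.91, and 10.52 and 11.20. Its copy Hspa1b is nearly identical in sequence, so the Hspa1a signal may include it. The shared probe set of the pair was not used.

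Nr4a1, a nuclear receptor gene induced by antigen receptor and other signals, had the largest spread of all members (within-group SD 1.26). It read 5.28, 6.20 and 8.40 in Zeb2hi CDPs, 6.30, 8.12 and 8.09 in Zeb2low CDPs, and 8.58 and 9.65 in pre-CD8 DCs. Zeb2hi array 3 thus stood above all Zeb2low arrays and close to pre-CD8 DC array 1. Nr4a2 had a smaller span, at 5.98, 6.02 and 6.76 in Zeb2hi CDPs, 6.36, 6.67 and 7.24 in Zeb2low CDPs, and 6.63 and 8.12 in pre-CD8 DCs. The median within-group SD of the 39 members was 0.62, against 0.23 over all genes tested, and 37 of the 39 were above that second value.

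The spread over the 6 CDP arrays was divided into a share that follows the population, a share that follows the replicate number of the labels and a remainder. For the members the medians were 13.6% for the population and 66.3% for the number, against 44.0% and 30.1% over all genes tested. The number took the larger share in 33 of 39 members and in 43.0% of all genes. Dusp2 (98.8%), Gadd45g (97.8%), Hspa1a (97.6%), Jun (96.1%), Fosb (95.9%), Fos (95.2%), Egr1 (94.8%), Atf3 (91.9%) and Jund (90.9%) each had over 90% of their CDP variance with the number. The population took the larger share in 6 members. These were Sgk1 (95%), Rgs2 (92.7%), Klf4 (63.4%), Rgs1 (61.4%), Zfp36 (57.9%) and Gadd45a (56.1%). With the group means removed, pairs of members correlated over the 6 CDP arrays with a median r of 0.79, and 96.2% of the 741 pairs were above 0. These arrays are shared by all pairs, so the values describe the arrays and are not independent.

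**Figure D2:**
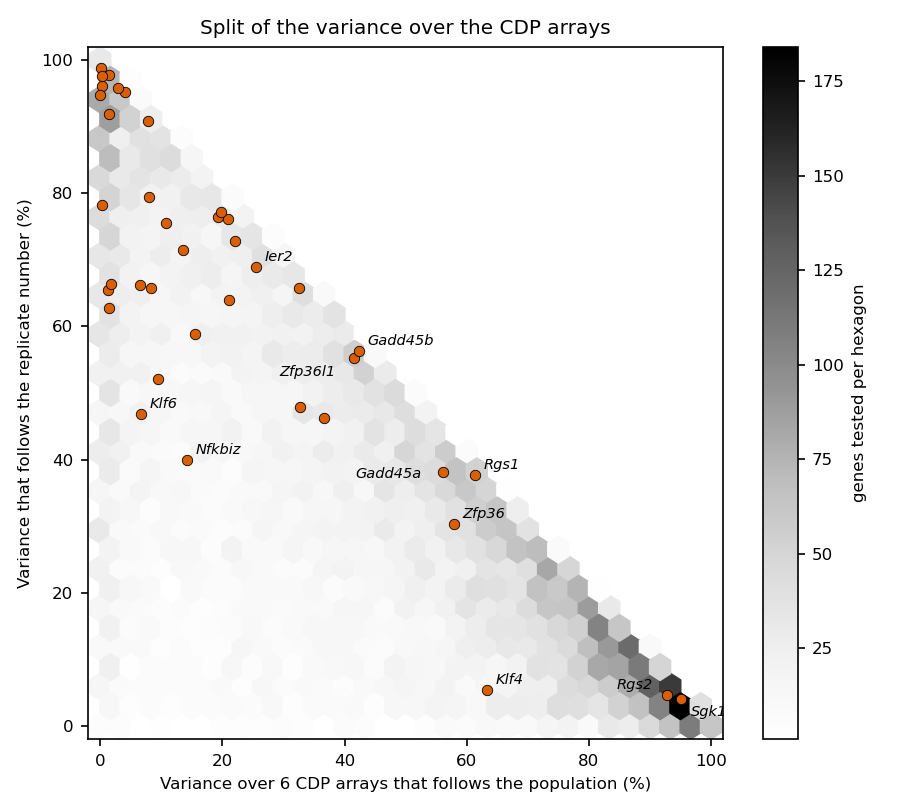
Percent of the variance over the 6 CDP arrays that follows the population (horizontal) and the replicate number (vertical), as grey hexagons shaded by the number of genes tested and as orange points for the 39 members. Most members lie at the upper left, at a median number share of 66.3%, and Sgk1 and Rgs2 lie at the lower right.

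The first comparison set Zeb2low CDPs against Zeb2hi CDPs. Sgk1 and Rgs2 were higher in Zeb2low CDPs, and these 2 of 39 members were the ones past the test, where 4.50% of all genes tested were higher and 10.3% lower. No member was lower by limma, and at an unadjusted p below 0.05 the counts were 4 higher and 0 lower. The share of all genes at that unadjusted cutoff was not counted, here or in the other comparisons. The median log2 difference of the members was 0.29, against 0.03 over all genes, and 26 of 39 were positive, against 52.2% of all genes. That median was 0.07 without Zeb2low array 2, 0.13 without Zeb2hi array 1, 0.15 without Zeb2low array 3 and 0.50 without Zeb2low array 1. The neutrophil mean given above was also higher in Zeb2low CDPs, with overlap between the fractions (9.42 to 11.44 against 7.80 to 9.59), and its part in these differences was not tested. The arrays of the fractions did not overlap for 5 members, all higher in Zeb2low CDPs (Sgk1, Rgs2, Rgs1, Gadd45a and Klf4), against 20.2% of all genes. Klf4 was barely separated, at 7.787 on Zeb2hi array 1 and 7.790 on Zeb2low array 1.

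Sgk1, a kinase gene induced by serum and glucocorticoids, read 4.88, 5.17 and 5.31 on the Zeb2hi arrays and 6.25, 6.47 and 6.40 on the Zeb2low arrays. The lowest Zeb2low value lay 0.94 above the highest Zeb2hi value. The log2 difference was 1.26 ± 0.16 (SE), a 2.39-fold higher signal (limma, adjusted p = 0.00285). Rgs2, which limits signalling through Gq-coupled receptors, read 8.84, 8.74 and 9.25 in Zeb2hi CDPs and 10.05, 10.06 and 10.12 in Zeb2low CDPs. Its 3 Zeb2low values lay within 0.08 of each other, and it differed by 1.13 ± 0.16 (adjusted p = 0.00456), or 2.19-fold. Both genes passed in all 8 fits that left out 1 array, with differences of 1.14 to 1.35 for Sgk1 and 1.03 to 1.29 for Rgs2. Rgs1, a related regulator of G protein signalling that dampens responses to chemokines, read 5.91, 5.81 and 7.17 in Zeb2hi CDPs and 7.28, 7.43 and 8.36 in Zeb2low CDPs. The groups did not overlap, but Zeb2hi array 3 came close, and the difference of 1.39 ± 0.50 did not pass (adjusted p = 0.0922).

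The deviations of same-numbered Zeb2hi and Zeb2low arrays went together over all genes, so the fractions were also compared within numbers. When replicate number entered the fit of the 6 CDP arrays as a block, 9 members were higher and 2 lower in Zeb2low CDPs. This fit called far more genes of every kind, 11.5% of all genes as higher and 19.0% as lower, and has 2 residual degrees of freedom. Higher were Rgs1 (1.39 ± 0.14, adjusted p = 0.00138), Sgk1, Rgs2, Gadd45a (1.01 ± 0.17, adjusted p = 0.00676), Zfp36l1 (0.68 ± 0.14, adjusted p = 0.0126), Nfkbia (0.73 ± 0.16, adjusted p = 0.0162), Nr4a2, Zfp36 (0.61 ± 0.16, adjusted p = 0.029) and Junb (0.49 ± 0.15, adjusted p = 0.0474). Lower were Gadd45b (-0.77 ± 0.13, adjusted p = 0.00649) and Ier2 (-0.78 ± 0.18, adjusted p = 0.0205). In the fit without the block these differences were of the same size but, apart from Sgk1 and Rgs2, did not pass. All 3 pairs of arrays had the same sign for each of these 11 members. The blocked fit favours genes whose pairs agree, so this adds no support to the calls. Gadd45b read 5.83, 6.99 and 6.61 in Zeb2hi CDPs and 5.12, 6.04 and 5.96 in Zeb2low CDPs. Gadd45a read 6.17, 6.82 and 6.50 and then 6.95, 8.29 and 7.28, without overlap. Junb, a Jun paralog, overlapped between the fractions, at 6.53, 7.68 and 7.36 and then 7.24, 8.26 and 7.52, and read 8.40 and 7.87 in pre-CD8 DCs. Rgs1 was higher by 1.37, 1.62 and 1.19 within numbers 1, 2 and 3, and Ier2, an immediate early gene of a small nuclear protein family, differed by -1.19, -0.30 and -0.86. Ier2 read 8.43, 9.28 and 9.69 in Zeb2hi CDPs, 7.24, 8.97 and 8.83 in Zeb2low CDPs, and 10.00 and 8.45 in pre-CD8 DCs. Over all members, 18 of 39 were higher in Zeb2low CDPs in every pair and 4 were lower (Fos, Fosb, Gadd45b and Ier2), against 32.5% and 32.2% of all genes. The median difference of the members was 0.20 within number 1, 0.58 within number 2 and 0.03 within number 3.

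**Figure D3:**
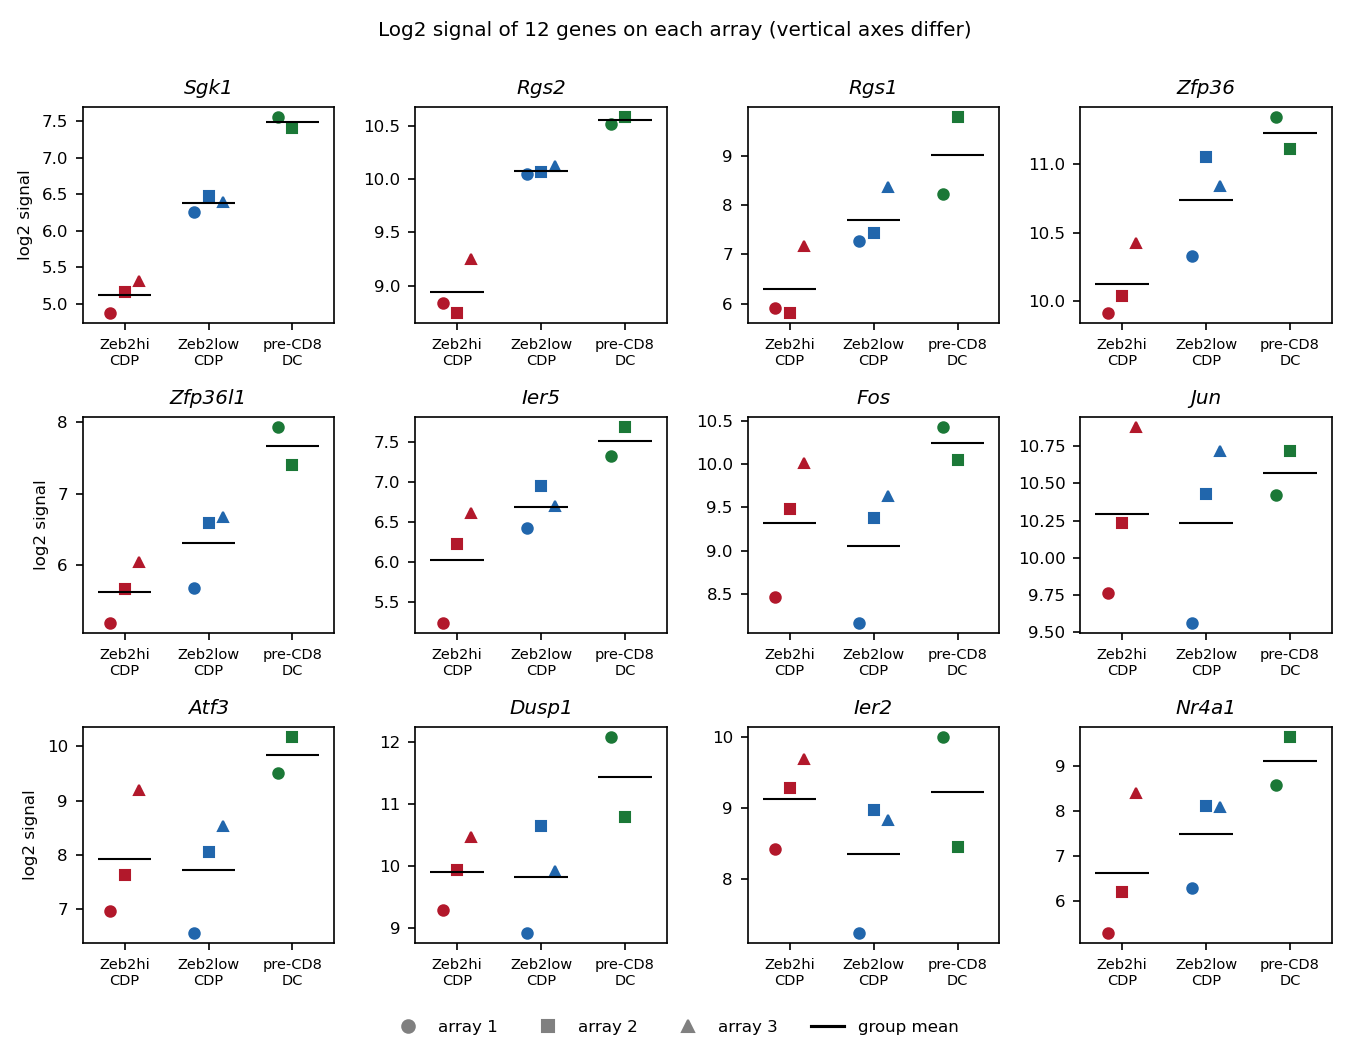
Log2 signal of 12 members on each array, with a marker shape for each replicate number and a line at each group mean; the vertical axes differ. Sgk1 and Rgs2 separate the groups, while Fos, Jun and Atf3 have array 1 lowest and array 3 highest in both CDP fractions.

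The second comparison set pre-CD8 DCs against Zeb2hi CDPs. In pre-CD8 DCs 7 of 39 members were higher and 0 lower, where 6.51% of all genes tested were higher and 11.1% lower. At an unadjusted p below 0.05 the counts by limma were 19 and 0, with no count over all genes to set beside them. The 7 were Sgk1, Rgs2, Rgs1, Zfp36l1, Zfp36, Ier5 and Btg1. The median log2 difference of the members was 0.92, against -0.02 over all genes. Positive were 37 of 39, all but Gadd45b and Rhob, against 48.5% of all genes. The neutrophil mean was higher too (9.75 and 11.90 against 7.80 to 9.59), and its part was not tested. Both pre-CD8 DC arrays lay above all Zeb2hi arrays for 20 of 39 members, against 21.4% of all genes. Pre-CD8 DC array 1 was the higher of its pair for 21 members and the lower for 18, unlike CDP arrays 1. Of all genes, 42.6% were higher on pre-CD8 DC array 1.

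Sgk1 read 7.56 and 7.41 in pre-CD8 DCs, 5.15-fold above Zeb2hi CDPs (2.37 ± 0.17, adjusted p = 0.000129). Rgs2 read 10.52 and 10.58, a difference of 1.60 ± 0.18 (adjusted p = 0.00105). Both sat above every CDP array, and their pre-CD8 DC values lay close together. Rgs1 read 8.23 and 9.79 and had the largest difference, 2.71 ± 0.55 (adjusted p = 0.0124). It did not pass without pre-CD8 DC array 2 (1.93, adjusted p = 0.0636).

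Zfp36 and Zfp36l1 encode proteins of mRNA decay. Zfp36, which encodes tristetraprolin, read 9.91, 10.04 and 10.42 in Zeb2hi CDPs, 10.33, 11.05 and 10.84 in Zeb2low CDPs, and 11.34 and 11.11 in pre-CD8 DCs. Zeb2hi array 3 overlapped Zeb2low array 1, whereas the pre-CD8 DC values were above all others. Pre-CD8 DCs were 2.15-fold above Zeb2hi CDPs (1.10 ± 0.24, adjusted p = 0.0169), which no longer passed when Zeb2hi array 2 (adjusted p = 0.0612) or pre-CD8 DC array 1 (adjusted p = 0.0921) was left out. Zfp36l1, its paralog, read 5.19, 5.66 and 6.04, then 5.68, 6.59 and 6.67, and 7.94 and 7.40 in pre-CD8 DCs. The lower pre-CD8 DC value was 0.73 above the highest CDP value, and the difference from Zeb2hi CDPs was 2.04 ± 0.35 (adjusted p = 0.00637), or 4.10-fold. All 8 fits that dropped 1 array passed, with values of 1.77 to 2.31.

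Ier5, an immediate early gene linked to the heat shock response, read 5.24, 6.23 and 6.62 in Zeb2hi CDPs, 6.43, 6.95 and 6.70 in Zeb2low CDPs, and 7.33 and 7.69 in pre-CD8 DCs. It differed by 1.48 ± 0.37 between pre-CD8 DCs and Zeb2hi CDPs (adjusted p = 0.025). It missed the threshold when Zeb2hi array 2 was dropped (adjusted p = 0.0584) and without pre-CD8 DC array 1 (adjusted p = 0.0672) or 2 (adjusted p = 0.109). Btg1, an antiproliferative gene that recruits the deadenylase machinery, read 8.08, 8.33 and 8.31, then 8.31, 8.99 and 8.38, and 9.78 and 8.90. Zeb2low array 2 was above pre-CD8 DC array 2. Its difference from Zeb2hi CDPs was 1.10 ± 0.29 (adjusted p = 0.033), and 3 of the 8 fits that dropped 1 array passed. The other 5 gave adjusted p-values of 0.0795, 0.0798 and 0.0814 (Zeb2hi array 1, 2 or 3 left out), 0.0501 (Zeb2low array 3) and 0.195 (pre-CD8 DC array 1, with a difference of 0.66). Without Zeb2hi array 2 the count of members past the test was 4, where 8.78% of all genes tested passed. Without Zeb2hi array 3 it was 11, where 9.41% of all genes passed. With all arrays 17.6% of all genes passed.

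Pre-CD8 DCs against Zeb2low CDPs shares its Zeb2low arrays with the first comparison and its pre-CD8 DC arrays with the second. Sgk1 was the 1 member of 39 that was higher (1.11 ± 0.17, adjusted p = 0.037, 2.16-fold), and 0 were lower, where 0.337% of all genes tested were higher and 0.217% lower. At an unadjusted p below 0.05 the counts by limma were 9 higher and 0 lower, again with no count over all genes. The median log2 difference of the members was 0.63, against -0.03 over all genes, and 38 of 39 were positive, against 46.3% of all genes. The median was 0.39 without Zeb2low array 1. Pre-CD8 DC arrays lay above all Zeb2low arrays for 17 of 39 members, against 12.4% of all genes. The Sgk1 call held in 1 of 8 fits without 1 array. The other 7 fits gave adjusted p-values of 0.0866 and 0.0671 (Zeb2hi array 2 or 3 left out), 0.0818, 0.0840 and 0.143 (Zeb2low array 1, 2 or 3) and 0.206 and 0.0545 (pre-CD8 DC array 1 or 2). The difference stayed between 1.04 and 1.18 in all 8 fits.

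**Figure D4:**
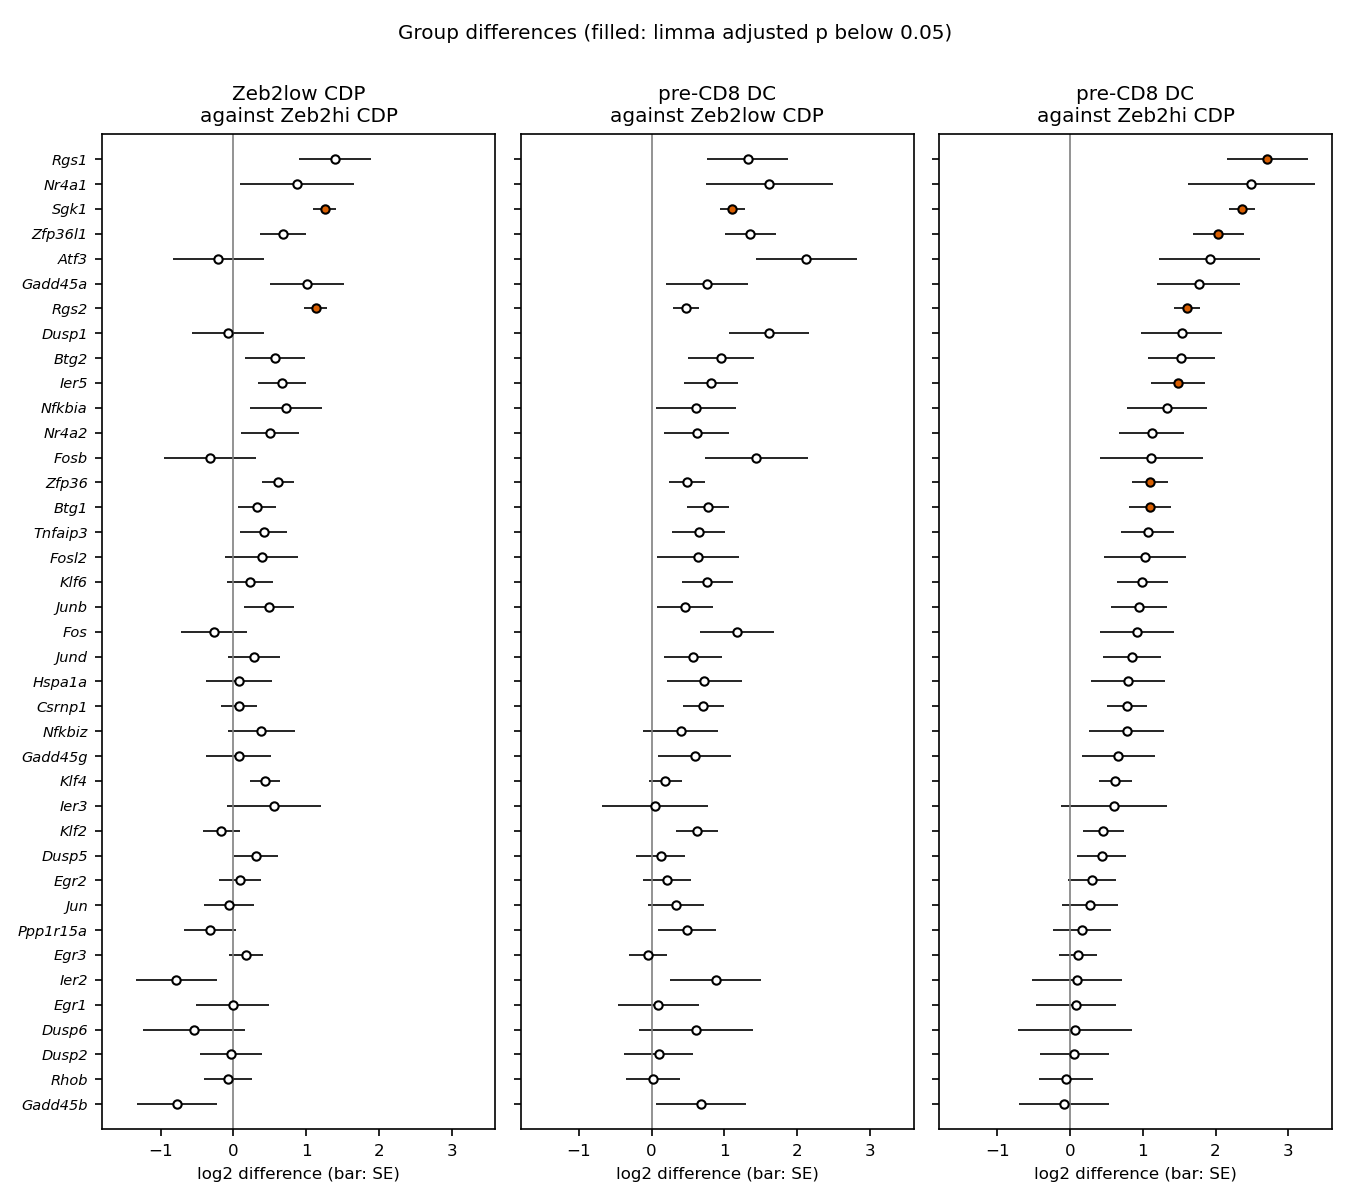
Log2 difference of the 39 members in the 3 comparisons, with the standard error as a bar and filled points for an adjusted p below 0.05 (limma, fit without a block). Sgk1 is filled in all 3 panels, Rgs2 in the panels against Zeb2hi CDPs, and most points of the panels with pre-CD8 DCs lie to the right of 0 with bars wider than those of Sgk1 and Rgs2.

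Several members had large positive differences in pre-CD8 DCs that were not past the test. Atf3 differed by 1.92 ± 0.70 from Zeb2hi CDPs (adjusted p = 0.0943) and by 2.13 ± 0.70 from Zeb2low CDPs (adjusted p = 0.248). Dusp1, a nuclear phosphatase of p38 and JNK, read 9.30, 9.94 and 10.47 in Zeb2hi CDPs, 8.91, 10.65 and 9.92 in Zeb2low CDPs, and 12.08 and 10.79 in pre-CD8 DCs. Zeb2low array 2 came within 0.14 of pre-CD8 DC array 2, and the difference from Zeb2hi CDPs was 1.54 ± 0.55 (adjusted p = 0.0914). Nr4a1 differed by 2.49 ± 0.87 from Zeb2hi CDPs (adjusted p = 0.0845). Btg2, an antiproliferative p53 target related to Btg1, differed by 1.53 ± 0.46 (adjusted p = 0.0503), with 8.36, 8.67 and 9.48 in Zeb2hi CDPs against 10.65 and 10.09 in pre-CD8 DCs.

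The phosphatase genes were not alike. Dusp2 read 6.93, 7.90 and 8.21 in Zeb2hi CDPs, 6.74, 8.01 and 8.19 in Zeb2low CDPs, and 7.56 and 7.92 in pre-CD8 DCs, so that it followed the array number with no separation of groups. Dusp6, which acts on ERK in the cytoplasm, read 6.20, 7.37 and 7.87, then 5.15, 7.78 and 6.87, and 7.97 and 6.45. Its lowest value was that of Zeb2low array 1, and its pre-CD8 DC arrays differed by 1.52. Dusp5, which acts on ERK in the nucleus, ranged from 5.60 to 6.75, and 76.45% of its CDP variance went with the array number.

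The 2 pre-CD8 DC arrays disagreed on part of the module. A difference of at least 1 log2 unit between them was seen in 13 of 39 members, against 6.09% of all genes tested. Higher on array 1 by that much were 10 members. Gadd45b (7.54 and 5.24 on arrays 1 and 2), Gadd45a (9.27 and 7.26), Fosl2 (8.77 and 6.81), Gadd45g (6.24 and 4.32), Ier3 (8.56 and 6.83), Nfkbiz (9.30 and 7.69), Ier2 (10.00 and 8.45), Dusp6, Dusp1 and Rhob made up this group. Gadd45 proteins are stress sensors that act on growth arrest and MAP kinases, Ier3 is an apoptosis regulator, and Nfkbiz is an atypical nuclear IkappaB. Higher on array 2 were 3 members, Rgs1, Nr4a2 and Nr4a1. The mean log2 signal of the 13 mature neutrophil genes was 11.90 on array 1 and 9.75 on array 2, and its part in these differences was not tested.

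The same marker list was set beside the CDP arrays. In Zeb2hi CDPs the neutrophil mean was 8.59, 9.59 and 7.80 on arrays 1, 2 and 3, so that array 3, the highest for 32 of 39 members, was the lowest for neutrophil genes. In Zeb2low CDPs it was 9.42, 11.44 and 10.46, so that array 1 was lowest for both. Of the 13 genes, 10 were lowest on array 3 of the Zeb2hi group and 3 on array 1 (Ngp, Camp and Chil3). In the Zeb2low group 12 were lowest on array 1. Ier3 followed this list in Zeb2low CDPs (6.45, 8.77 and 7.74) but not in Zeb2hi CDPs (6.24, 7.33 and 7.70).

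The NF-kappaB pathway and Klf members differed among themselves. Nfkbia, the inhibitor IkappaB-alpha, read 7.09, 8.32 and 8.98 in Zeb2hi CDPs, 7.98, 9.27 and 9.32 in Zeb2low CDPs, and 9.41 and 9.51 in pre-CD8 DCs. It was lowest on array 1 of both fractions and higher in Zeb2low CDPs by 0.89, 0.96 and 0.34 within numbers 1, 2 and 3. Tnfaip3, the deubiquitinase A20, read 5.89, 5.70 and 6.78, then 6.22, 6.35 and 7.05, and 6.92 and 7.46. Its highest CDP values were those of array 3. Klf4, a zinc finger factor of myeloid cells, kept to 7.46 to 7.79 in Zeb2hi CDPs, 7.79 to 8.25 in Zeb2low CDPs and 7.92 and 8.56 in pre-CD8 DCs. Klf2 and Klf6, zinc finger factors of quiescence and of activation, ranged from 7.12 to 8.34 and from 8.16 to 9.75.

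Csrnp1 was barely separated from the CDP arrays, at 7.362 on pre-CD8 DC array 2 and 7.360 on Zeb2low array 2. Ppp1r15a, Egr2 and Egr3 overlapped between pre-CD8 DCs and Zeb2hi CDPs. The differences between pre-CD8 DCs and Zeb2hi CDPs were 0.78 ± 0.28 for Csrnp1, a gene of a nuclear protein induced by axin, and 0.17 ± 0.40 for Ppp1r15a, the stress-induced GADD34 subunit of a phosphatase of eIF2alpha. Their adjusted p-values were 0.0858 and 0.816. Egr2 and Egr3, paralogs of Egr1, stayed between 4.82 and 6.06 and between 5.60 and 6.50 over all 8 arrays, and none of their differences passed.

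Promoter sequences of 36 of the 41 members were found in RefSeq's windows for build GRCm38.p6, which run from 250 bases before to 50 bases after a gene's start. Egr1, Egr3, Ier2, Nfkbiz and Rgs1 were not among them. Stretches of 60 bases are shown for 7 members because they hold the recognition letters of the factors that are known to drive such genes, with the match in capitals. Those of Zfp36 and Dusp5 hold CArG boxes, the motif of SRF, Dusp1 and Btg2 the cyclic AMP response element TGACGTCA, Hspa1a a heat shock element GAANNTTC, Nfkbia an NF-kappaB site, and Rgs2 the EGR motif GCGNGGGCG, here on the opposite strand.
Zfp36, chr7:28379247-28379306, minus strand: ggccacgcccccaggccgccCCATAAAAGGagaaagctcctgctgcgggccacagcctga
Dusp5, chr19:53529043-53529102, plus strand: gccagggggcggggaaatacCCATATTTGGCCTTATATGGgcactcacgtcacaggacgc
Dusp1, chr17:26508576-26508635, minus strand: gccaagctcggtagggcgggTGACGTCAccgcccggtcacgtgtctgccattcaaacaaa
Btg2, chr1:134079282-134079341, minus strand: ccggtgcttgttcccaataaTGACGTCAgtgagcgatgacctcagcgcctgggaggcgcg
Hspa1a, chr17:34972221-34972280, minus strand: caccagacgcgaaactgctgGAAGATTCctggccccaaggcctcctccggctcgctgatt
Nfkbia, chr12:55492648-55492707, minus strand: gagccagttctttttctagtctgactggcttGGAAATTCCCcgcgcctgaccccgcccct
Rgs2, chr1:144004286-144004345, minus strand: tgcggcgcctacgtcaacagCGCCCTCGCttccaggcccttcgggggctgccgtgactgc

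Over the 36 members with a window, searched on both strands, 3 held TGACGTCA (2.03% of all genes with a window), 3 a CArG box (1.81%), 11 GCGNGGGCG (6.27%), 7 an NF-kappaB site (5.14%), 5 GAANNTTC (9.04%) and 3 TGANTCA, the AP-1 motif (8.97%). Dusp5 holds a pair of CArG boxes side by side. Sequence matches of this kind describe letters in a window and were not tied to the signals by any test.

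Related genes outside the module were counted by lists. Of 40 tested further early response genes 5 were higher and 0 lower in Zeb2low than in Zeb2hi CDPs, and 9 and 0 in pre-CD8 DCs against Zeb2hi CDPs, with 0 and 0 between pre-CD8 DCs and Zeb2low CDPs. Over all genes the shares for the first pair of counts were 4.50% and 10.3%, and for the second 6.51% and 11.1%, and these shares apply to the other lists too. Klf3, a repressor of the Klf family, read 5.81 to 6.35 in Zeb2hi CDPs, 7.80 to 8.55 in Zeb2low CDPs and 8.61 and 8.70 in pre-CD8 DCs. It rose by 1.88 ± 0.24 in Zeb2low CDPs (adjusted p = 0.0029). Bhlhe40, a stress-responsive repressor, rose by 1.29 ± 0.31 (adjusted p = 0.026). Array 1 was the lowest of its group for 28 of the 40 genes in Zeb2hi CDPs and for 28 in Zeb2low CDPs, against 41.2% and 41.5% of all genes. Of 21 tested NF-kappaB induced genes 0 passed between the CDP fractions, and 3 were higher in pre-CD8 DCs than in Zeb2hi CDPs. Among them was Il1b (3.73 ± 0.94, adjusted p = 0.0268). It read 4.97, 7.40 and 5.72 in Zeb2hi CDPs, 6.74, 9.55 and 7.79 in Zeb2low CDPs, and 10.74 and 8.77 in pre-CD8 DCs. The part of neutrophil genes in the Il1b difference was not tested. Cd83, a maturation marker, was another (2.24 ± 0.29, adjusted p = 0.002). Cd83 also rose over Zeb2low CDPs (1.86 ± 0.29, adjusted p = 0.0338). Array 1 was lowest for 16 and 18 of these 21 genes in the Zeb2hi and Zeb2low groups, with the same shares over all genes.

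Hspa1a itself passed no comparison (0.08 ± 0.46 between the CDP fractions, adjusted p = 0.919). Of 17 tested genes of the heat shock response, 0 were higher and 5 lower in Zeb2low than in Zeb2hi CDPs, and 0 and 6 in pre-CD8 DCs against Zeb2hi CDPs; of all genes, 10.3% and 11.1% were lower in these comparisons. Hspa9, the mitochondrial Hsp70, fell by 1.40 on the log2 scale (adjusted p = 0.00169) from Zeb2hi to Zeb2low CDPs. Array 1 was lowest for 9 of the 17 in each fraction, against 41.2% and 41.5% of all genes. Of 14 integrated stress and unfolded protein response genes 1 was higher and 1 lower between the CDP fractions (Chac1, 1.18 ± 0.27, and the ER chaperone gene Hspa5, -1.11 ± 0.20), and 5 were higher and 0 lower in pre-CD8 DCs against Zeb2hi CDPs. Of 22 kinase and transcription factor inputs 2 were higher and 3 lower in Zeb2low CDPs, and 3 and 2 in pre-CD8 DCs against Zeb2hi CDPs. Elk3, an SRF partner that can act as a repressor, fell by 1.03 from Zeb2hi to Zeb2low CDPs (adjusted p = 0.00784) and read 8.57 to 8.75, 7.31 to 7.90 and 6.97 to 7.09 in the 3 groups. Of 11 p53 targets 0 were higher and 1 lower, and then 2 higher and 1 lower, in the same comparisons.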

How the data were processed

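The deposited values are linear intensities per probe set. Per the submitters' processing notes the authors obtained them by RMA with Expression Console, with versions not given in the sources used here. RNA was amplified with a whole-transcriptome kit for small inputs, per the labels' protocols. The table has 28853 probe sets and 8 arrays. RMA gives no detection call, so log2 differences may be compressed where signals are low. Symbols came from the platform annotation (1 gene for 21789 probe sets, several for 1621, none used here for 5443).

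Intensities were log2 transformed and each gene was represented by its passing probe set with the highest mean. Groups were compared with limma 3.58.1 in R 4.3.3 (two-sided, all 8 arrays in 1 fit, 5 residual degrees of freedom), with Benjamini-Hochberg adjustment over all 13356 genes in each comparison at 0.05. Errors of differences are standard errors from limma, and precision is limited by how few arrays there are. The fit was tested on simulated data for all 13356 genes, with independent noise on each array. Randomly drawn from them, 100 genes were changed by 1 and 100 by 2 on the log2 scale. The fit recovered 48 and 89 for Zeb2low against Zeb2hi CDPs, and 45 and 90 for pre-CD8 DCs against Zeb2low CDPs. For pre-CD8 DCs against Zeb2hi CDPs it recovered 53 and 90. Unchanged genes called were 5, 8 and 10 in the same order. The median within-group SD was 0.62 for the members and 0.23 over all genes. The simulation therefore does not give the recovery for the module.

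The numbers in the titles were taken to pair the CDP arrays because deviations from the group means correlated over all genes between same-numbered arrays (r = 0.478, 0.407 and 0.308), and hardly less without the members (0.471, 0.409 and 0.300). The labels give these numbers no meaning.

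Members and lists were chosen with earlier results of these data known. Given array by array were Zfp36, Atf3, Dusp1, each member past a test and the 6 others with the largest within-group SD. Further members given so were added after their values were seen. From each related list, at most 2 genes per direction and comparison were eligible to be named.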

Additional observations from a re-analysis of the deposited data

How the results depend on the processing

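The count of members past the test between the CDP fractions (2) was 2 or 3 under every change of filter, normalization, probe set rule and prior, with the block over all arrays, with the 2 groups alone, and without any 1 array. It was 6 with array weights, 11 with the replicate block over the CDP arrays, 7 without Zeb2low array 1 and pre-CD8 DC array 1 together, and 8 (7 higher, 1 lower) without the 3 arrays numbered 1, the last added after seeing the data. Between pre-CD8 DCs and Zeb2low CDPs the count (1) was 0 with array weights, with the 2 groups alone (replicate block or not) and without either set of arrays named above, and 0 to 1 without 1 array. The replicate block over all arrays also gave 1, but of a different member: Sgk1 was lost (adjusted p = 0.111) and Atf3 gained (0.0465). At an unadjusted p below 0.05 the counts by limma were 4 with array weights, 12 with the 2 groups alone and 11 with the block added. The share of all genes at that cutoff was not counted, so these counts cannot be judged. Between pre-CD8 DCs and Zeb2hi CDPs the count past the test was 14 with the replicate block over all arrays and 4 to 11 without 1 CDP array, against 7. Without the 3 arrays numbered 1, which leaves 1 pre-CD8 DC array, the median difference of the members was 0.58 against 0.92. The median between pre-CD8 DCs and Zeb2low CDPs was then 0.21 against 0.63. The block over all arrays and the blocked fits of pre-CD8 DCs with 1 CDP group joined pre-CD8 DC arrays to same-numbered CDP arrays. Pre-CD8 DC array 1 correlated at -0.172 and -0.401 with CDP arrays 1, but at 0.31 and 0.59 with CDP arrays 2. Counts from these fits therefore rest in part on a pairing that the values do not bear out. No difference of a member past the test reversed. Between the CDP fractions 14.8% of all genes passed in the main fit. The share was 33.4% with array weights and 30.5% with the replicate block over the CDP arrays. There the 2 fits without a set of arrays also called a larger share of all genes than the main fit. Between pre-CD8 DCs and Zeb2hi CDPs the share was 17.6% in the main fit and 11.9% with the block over all arrays. Centring on array medians moved the median of all genes between the CDP fractions from 0.03 to -0.14 and that of the members from 0.29 to 0.12. It moved the share of higher genes among all calls from 30.4% to 14.2%, and quantile normalization moved it to 40.9%. All members past the test were higher under both scalings. The cause of these changes was not tested.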
